A study of Homo sapiens and Canis lupus familiaris with 27 samples.

Results

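The Fanconi anemia and homologous recombination genes described here are 34 genes, chosen by name, which were found in all 3 count tables, among 23708 genes listed for the human cell lines and 16028 for the canine cell line. RNA was sequenced from PC-3 cells, from LNCaP cells, both human prostate carcinoma lines, and from CT1258, a canine prostate carcinoma line, so that every line stands for 1 tumor. Cells received the indolylmaleimide PDA-66 at 15 μM for 12 h or 24 h, and the controls of each line received 0.15% DMSO, the solvent of PDA-66, and are labelled with 24 h. A control of 12 h was not used here, and both PDA-66 groups of a line share their controls. Each group held 3 samples, except for PC-3 DMSO, where 2 samples had counts. The study's methods state that 1 PC-3 control was left out as an outlier, which was seen by multidimensional scaling of the expression data. They call the replicates of a condition biological and independent.

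The Fanconi pathway unhooks crosslinks between DNA strands. A core complex of proteins, which works as a ubiquitin ligase together with the conjugating enzyme UBE2T, attaches ubiquitin to FANCD2 and FANCI, a clamp on DNA, and USP1 with its cofactor WDR48 takes the ubiquitin off again. Nucleases held by the scaffold SLX4 cut beside the crosslink, and the break is repaired by homologous recombination, in which BRCA1, PALB2 and BRCA2 act at the broken end. The BLM complex then takes the joined DNA molecules apart. In many cell types these genes are transcribed mainly in S phase and G2, when a sister chromatid is at hand for repair.

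Since the members include genes that moved together, promoters were searched for 3 motifs that are known from cell cycle genes. RefSeq promoters (GRCh38.p14) were found for 31 of the 34 genes, and the 250 bases before the start were read on both strands. An E2F motif (TTTGGCGC, TTTCCCGC, TTTCGCGC or TTTGCCGC) was found in FANCA and FANCC, 6.5% of the members, compared with 2.8% of 27305 promoters. A CHR motif (TTTGAA or TTCGAA) was found in FANCC, UBE2T and BRIP1 (9.7% compared with 14.6%), and CCAAT in 12 members (38.7% compared with 33.0%). No match of one motif overlapped with a match of another. A match describes the letters only, and binding was not measured. The windows of 5 members that rose in at least 1 line are shown 5′ to 3′ on the strand of the gene, as examples of each motif, with every match of a motif or of its reverse complement in capitals. They lie at chr16:89816786-89816845 for FANCA, chr1:202342058-202342115 for UBE2T and chr17:61863529-61863582 for BRIP1, all on the minus strand, and at chr1:46247597-46247653 for RAD54L and chr15:90717299-90717345 for BLM, on the plus strand.
FANCA: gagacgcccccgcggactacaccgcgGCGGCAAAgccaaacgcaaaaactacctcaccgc
UBE2T: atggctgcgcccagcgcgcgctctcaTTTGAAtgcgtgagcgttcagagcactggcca
BRIP1: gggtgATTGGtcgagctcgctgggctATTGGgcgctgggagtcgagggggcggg
RAD54L: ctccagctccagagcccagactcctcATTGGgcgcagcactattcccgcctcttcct
BLM: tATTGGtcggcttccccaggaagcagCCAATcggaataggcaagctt

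The sequencing depth ranged from 14650839 to 18091755 counts per PC-3 sample, from 11923105 to 14741883 per LNCaP sample and from 7203534 to 20976950 per CT1258 sample, where the controls had 2.639 times the counts of the PDA-66 samples. Counts were normalized by TMM and are given as CPM, which relates the counts of a gene to the size of its library. A gene was called differentially expressed (DEG) at an adjusted p-value under 0.001 in edgeR's quasi-likelihood test, and all 34 genes passed the filter on low counts in every line. All 5 epithelial markers were above 1 CPM in both human lines, and all 7 luminal prostate markers in LNCaP but 2 of 7 in PC-3. In CT1258, 1 of the 5 epithelial markers, EPCAM, was listed under its name, with 0 counts in the controls and at most 0.262 CPM with PDA-66, and TMPRSS2, a luminal marker, was at 0 in every CT1258 group. The summed leukocyte markers stayed at or below 1.9 CPM in all 3 lines. The summed fibroblast markers of CT1258 were at 262 to 322 CPM in the controls, 333 to 429 CPM after 12 h and 361 to 393 CPM after 24 h, with 1 of the 3 listed genes above 1 CPM, and the 1 listed muscle marker was at 25.2 to 36.6 CPM over its groups. The summed luminal markers of PC-3 were at 754 to 814 CPM in the controls, 249 to 266 CPM after 12 h and 412 to 455 CPM after 24 h. Its summed epithelial markers were at 987 to 1088, 658 to 727 and 680 to 908 CPM in the same order. The summed endothelial markers were at 13 to 18.8, 4.26 to 5.41 and 8 to 10.1 CPM in PC-3. In LNCaP they were at 22.9 to 40.2, 4.85 to 14.6 and 6.18 to 7.28 CPM. The part of these markers in the results was not tested.

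Base composition moved with the treatment in CT1258, which touches every result of that line. Genes were ranked by the GC content of the human transcript, which stands in for the canine one, and divided into 10 equal parts. In CT1258 after 12 h, the median log2 fold change of all genes was 0.66 in the part with the lowest GC content and -0.71 in the part with the highest. After 24 h it was 0.51 and -0.62. In PC-3 the same medians were 0.08 and -0.07 after 12 h, and 0.06 and -0.10 after 24 h. As a description across genes, Spearman's rho between GC content and change in CT1258 was -0.64 for 8620 genes and -0.71 for the 34 members after 12 h. Treatment, sequencing depth and this trend go together in CT1258 and cannot be told apart. The calls in CT1258 are therefore given with their values after a correction of each sample for GC content and transcript length, which was chosen after seeing the data. The common biological coefficient of variation was 0.0971 without and 0.0694 with the correction (PC-3), 0.24 and 0.158 (LNCaP), and 0.1 and 0.0725 (CT1258). The correction was fitted to these same samples, so a lower value was to be had in any case and does not speak for it. It also covered fewer genes, with 12304 compared with 13777 (PC-3), 11700 with 13156 (LNCaP) and 8603 with 9886 (CT1258).

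**Figure D1:**
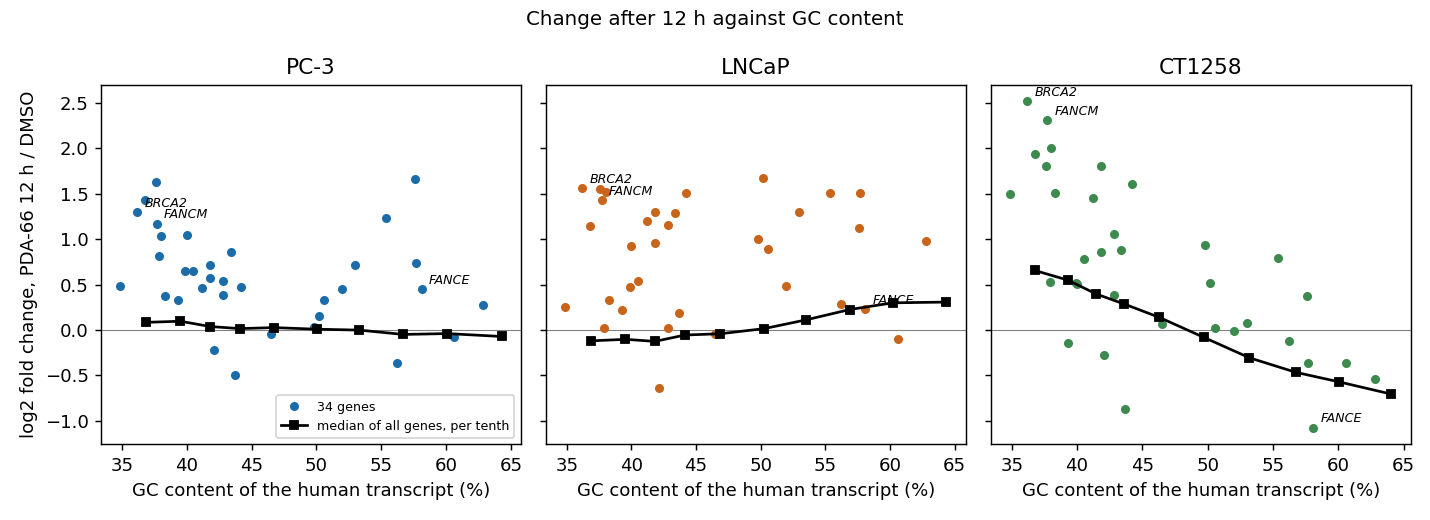
Each panel plots the log2 fold change after 12 h of PDA-66 against the GC content of the human transcript in percent, with the 34 genes as colored points and the median of all genes in 10 equal parts ranked by GC content as black squares. In CT1258 the medians fall from 0.66 to -0.71, while those of PC-3 go from 0.08 to -0.07 and those of LNCaP from -0.12 to 0.31.

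In PC-3, PDA-66 raised a large share of the pathway. After 12 h, 14 of the 34 genes rose (41.2%), compared with 13.0% of all 13777 genes tested, and none fell (14.6% of all genes). After 24 h, 18 genes rose (52.9%, compared with 8.88%) and none fell (10.5%). The median log2 fold change of the members was 0.51 and 0.72, while the median of all genes tested was close to 0. With the correction, 17 and 19 members rose, compared with 19.6% and 14.7% of all genes. RNA per cell and the share of cells that express a gene cannot be told apart in these bulk samples.

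In CT1258, 17 members rose and 1, FANCE, fell after 12 h, compared with 22.2% of the 9886 genes tested that rose and 22.1% that fell. After 24 h, 19 rose and FANCE fell (16.6% and 17.2% of all genes). The correction left 16 higher after 12 h (17.7% of all genes) and 19 higher after 24 h (13.1%). With the 3 and 2 members that were lower then, the calls in either direction compare with 36.8% and 27.3% of all genes. The lower ones were FANCE and FANCF at both times, and WDR48 after 12 h. The median change of the members was 0.52 and 0.63, and 0.40 and 0.58 with the correction.

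In LNCaP, 0 members passed the threshold after 12 h or 24 h, as did 0.00760% and 0% of the 13156 genes tested. By unadjusted p-value under 0.05, 22 members differed after 12 h (30.0% of all genes) and 22 after 24 h (19.8%). At an adjusted p-value under 0.05, 16 members were higher after 12 h (47.1%, compared with 4.52% of all genes) and none was lower (4.62%). After 24 h, 7 members were higher (20.6%, compared with 1.35%) and none lower (1.57%). Leaving out 1 sample at a time ended 42 of 144 such calls after 12 h and 42 of 63 after 24 h, where each of the 7 genes lost its call in at least 1 fit. Under 0.05 after 12 h, 4 members were called without LNCaP DMSO replicate 3 (1.85% of all genes). Without LNCaP PDA-66 12 h replicate 2, 24 were (29.1%). The DESeq2 Wald test called 13 and 7 members at 0.001 (4.71% and 2.17% of all genes), while the exact test of edgeR, run on PDA-66 and DMSO alone, called 2 and 19 (1.56% and 9.65%). The members' median was the highest of the lines, with 0.97 after 12 h and 0.82 after 24 h. The spread between the LNCaP samples was also the widest. In the 12 h group, 1 sample differed from the others along GC content, as given further on, and its part in the spread was not measured.

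**Figure D2:**
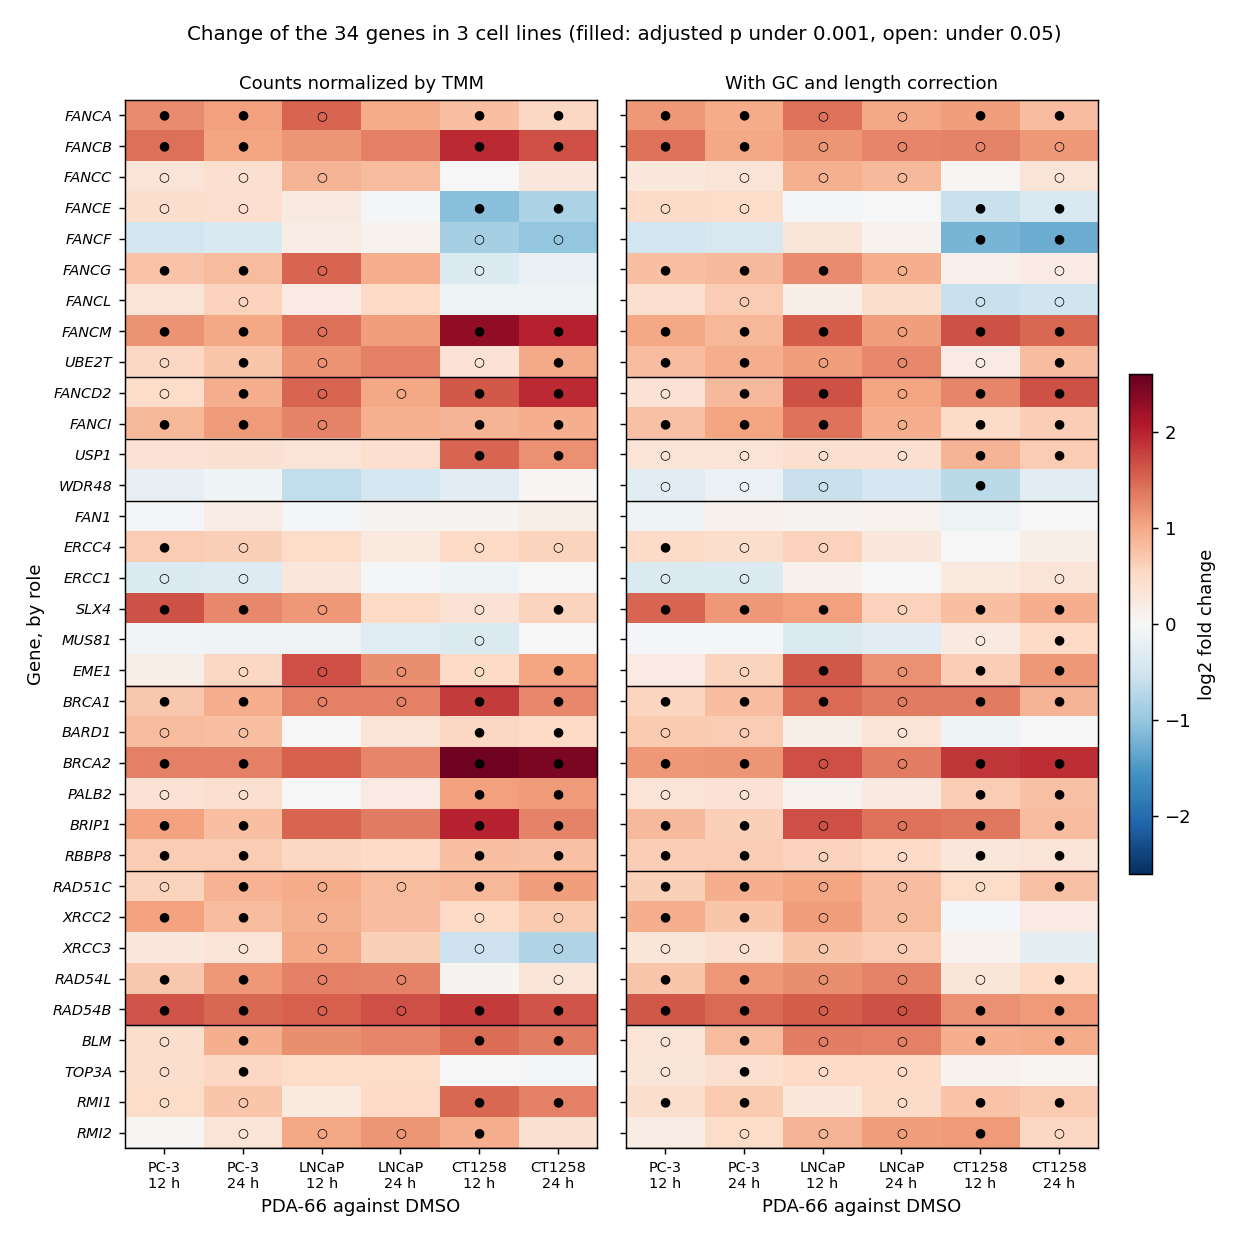
Color gives the log2 fold change of PDA-66 against DMSO for the 34 genes (rows, by role) in the 6 comparisons (columns), without correction on the left and with the GC and length correction on the right. Filled circles mark an adjusted p-value under 0.001 and open circles one under 0.05. Most genes are red in every column. FANCE and FANCF are among the blue ones in CT1258, where 25 of the 34 genes lie above 0 after 12 h without correction. FANCF is also blue in PC-3.

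FANCM, the DNA translocase that anchors the complex, was at 26 and 24.5 CPM in the PC-3 controls and at 58.5, 55.4 and 56.8 CPM after 12 h and 54.1, 52.8 and 45.8 CPM after 24 h. In CT1258 it was at 15.7, 11.5 and 15.3 CPM in the controls, 72.5, 78.3 and 59.3 CPM after 12 h, and 55, 56.7 and 60.1 CPM after 24 h. The controls did not overlap with the PDA-66 samples in either line. This was a log2 fold change of 1.17 ± 0.11 (SE) after 12 h in PC-3 (adjusted p = 1.66e-06) and of 2.31 ± 0.134 in CT1258 (adjusted p = 9.70e-09), and 1.65 ± 0.0864 in CT1258 with the correction. In LNCaP, FANCM was at 14.9, 17.5 and 11.4 CPM in the controls and 51.3, 24.8 and 41.9 CPM after 12 h, which was 1.43 ± 0.277 (adjusted p = 0.0165). After 24 h it was at 29.7, 35.6 and 27.1 CPM there, above every control.

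FANCA, a subunit of the core complex, was at 31.5 and 24.9 CPM in the PC-3 controls and at 64.8, 65.9 and 67.6 CPM after 12 h. It rose by 1.23 ± 0.113 in PC-3 (adjusted p = 1.49e-06) and was at 59.5, 58.1 and 60.7 CPM after 24 h. In CT1258 its controls were at 22.3, 21.5 and 21.8 CPM, compared with 36.2, 41 and 35.7 CPM after 12 h and 32.5, 31.2 and 30.8 CPM after 24 h. The change of 0.79 ± 0.0953 in CT1258 after 12 h (adjusted p = 6.25e-06) became 1.09 ± 0.0839 with the correction. The transcript of FANCA has 55.4% GC. In LNCaP, the controls were at 16.2, 18.8 and 12.1 CPM and the 12 h samples at 36.7, 64.1 and 33.6 CPM, a change of 1.51 ± 0.268 (adjusted p = 0.0126), and the 24 h samples were at 31.4, 30.9 and 29.3 CPM.

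FANCE, which couples the core complex to FANCD2, went in different directions. In CT1258 it fell from 50, 62.1 and 53 CPM to 25.4, 25.4 and 27.3 CPM after 12 h and 35.5, 29.5 and 28.2 CPM after 24 h. The change was -1.08 ± 0.117 after 12 h (adjusted p = 2.22e-06) and -0.82 ± 0.115 after 24 h (adjusted p = 3.53e-05). With the correction it was -0.58 ± 0.0785 and -0.40 ± 0.0769, still past the threshold. In PC-3, FANCE was at 11.2 and 10.4 CPM in the controls and at 14.2, 15.6 and 14.6 CPM in the 12 h samples, a change of 0.45 ± 0.122 (adjusted p = 0.00622), and at 14.8, 14.4 and 14.9 CPM after 24 h. LNCaP controls (18, 14.9 and 12 CPM) overlapped with the samples of 12 h (12.4, 26.3 and 14.1 CPM) and of 24 h (14.6, 14.3 and 15.2 CPM).

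FANCG, another part of the core complex, was at 28.9 and 29.1 CPM in the PC-3 controls and 48.1, 49.6 and 48 CPM after 12 h, a rise of 0.74 ± 0.101 (adjusted p = 4.13e-05), and 54.1, 47.7 and 51.3 CPM after 24 h. In CT1258 the controls at 72.2, 80.5 and 74.8 CPM lay above the 12 h samples at 59.1, 59.1 and 58.7 CPM, with a change of -0.36 ± 0.0973 (adjusted p = 0.00432). This direction did not hold with the correction, which gave 0.13 ± 0.0717. The CT1258 24 h samples at 74.9, 58.5 and 66.6 CPM overlapped with the controls. LNCaP samples were at 33.7, 30.4 and 23.5 CPM with DMSO and at 59, 132 and 58.6 CPM after 12 h, and at 58.2, 53.9 and 55.7 CPM after 24 h.

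Of the other core genes, FANCB rose in PC-3, by 1.43 after 12 h and 1.02 after 24 h, from a mean of 8.48 ± 0.339 CPM (SD, n = 2). In CT1258 its changes of 1.94 and 1.68 were called, and with the correction they were 1.28 and 1.13, which missed the threshold (adjusted p = 0.00148 and 0.00518). UBE2T passed the threshold after 24 h in PC-3 (0.73) and CT1258 (0.98, or 0.81 and past the threshold with the correction). FANCF, an adaptor of the complex, was the member with the lowest corrected value. In CT1258 it went from 5.56, 7.11 and 6.46 CPM to 3.46, 3 and 4.01 CPM after 12 h, and its corrected changes of -1.20 after 12 h and -1.28 after 24 h passed the threshold. Uncorrected, they were -0.87 and -1.0 (adjusted p = 0.00438 and 0.00238). FANCC and FANCL, the ligase subunit itself, passed the 0.001 threshold in no line.

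FANCD2, which is located at chr3:10068054-10143616 (GRCh37, 44 exons in the canonical transcript), had its highest level after 24 h in 2 of the lines. In PC-3 it went from 58.5 and 44.9 CPM in the controls to 69.2, 72.4 and 73.2 CPM after 12 h and 105, 97.2 and 96.2 CPM after 24 h. In CT1258 it went from 31.1, 25.7 and 30.3 CPM to 89.5, 92.8 and 83.3 CPM and then to 105, 111 and 115 CPM. In LNCaP the order of the times was the other way round, with 49.9, 49.7 and 33.3 CPM in the controls, 130, 131 and 117 CPM after 12 h and 86, 93.3 and 87.3 CPM after 24 h. No PDA-66 sample overlapped with the controls of its line.

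For FANCD2, the log2 fold change after 12 h was 0.47 ± 0.116 in PC-3 (adjusted p = 0.00356), 1.51 ± 0.181 in LNCaP (adjusted p = 0.00518) and 1.61 ± 0.096 in CT1258 (adjusted p = 1.19e-08). After 24 h it was 0.94 ± 0.117, 1.00 ± 0.179 and 1.93 ± 0.0961. With the correction, CT1258 had 1.27 and 1.66. Between the PDA-66 groups, the difference of 24 h from 12 h was 0.47 ± 0.101 in PC-3 (adjusted p = 0.00974) and 0.32 ± 0.0934 in CT1258 (adjusted p = 0.0297). In LNCaP this difference lay between -0.50 and -0.37 for FANCD2 and FANCI, and neither had an adjusted p-value under 0.05. FANCI, the partner of FANCD2 in the clamp, was at 71.6 and 62 CPM in the PC-3 controls and at 125, 123 and 115 CPM after 12 h, and then at 163, 143 and 124 CPM. It rose in PC-3 by 0.86 and 1.10 and in CT1258 by 0.88 and 0.95 (0.50 and 0.64 with the correction, both past the threshold). In CT1258 the controls lay at 25.6, 22.1 and 26.2 CPM the 12 h samples at 46.4, 47.7 and 42.1 CPM and the 24 h samples at 46.9, 50.4 and 45.4 CPM. In LNCaP, FANCI was at 65.4, 79.3 and 41.1 CPM with DMSO, at 177, 123 and 153 CPM after 12 h, and at 114, 118 and 118 CPM after 24 h.

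USP1, the ubiquitin protease that reverses this step, was at 110, 129 and 104 CPM in the CT1258 controls, at 348, 322 and 303 CPM after 12 h and at 236, 264 and 275 CPM after 24 h. Its rise of 1.51 ± 0.0992 and 1.18 ± 0.0987 (adjusted p = 2.75e-08 and 4.08e-07) became 0.89 and 0.66 with the correction, and both passed. In PC-3 the controls at 122 and 168 CPM overlapped with the 24 h samples at 231, 196 and 144 CPM but not with the 12 h samples at 205, 176 and 182 CPM, and the changes of 0.37 and 0.40 did not pass. LNCaP samples were at 98.9, 150 and 96.9 CPM with DMSO and at 180, 94.8 and 159 CPM after 12 h and 142, 166 and 159 CPM after 24 h, which overlap.

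WDR48, the cofactor that activates USP1, passed the threshold in no line without the correction. It was at 75.1 and 70.6 CPM in the PC-3 controls and at 64.5, 60.4 and 63.1 CPM after 12 h, a change of -0.22 ± 0.0957 (adjusted p = 0.0694), and at 69.1, 70.6 and 62.8 CPM after 24 h. In CT1258, controls at 29.1, 17.9 and 28.2 CPM overlapped with 12 h samples at 21, 20.1 and 20.8 CPM and 24 h samples at 25.3, 26.1 and 27 CPM. With the correction, its change after 12 h in CT1258 was -0.71 ± 0.145 (adjusted p = 0.00077), and after 24 h it was -0.30 (adjusted p = 0.0837). In LNCaP it was at 31.9, 51 and 42.1 CPM with DMSO 32.1, 15.1 and 32.7 CPM after 12 h, and 29.7, 31.3 and 30.4 CPM after 24 h.

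**Figure D3:**
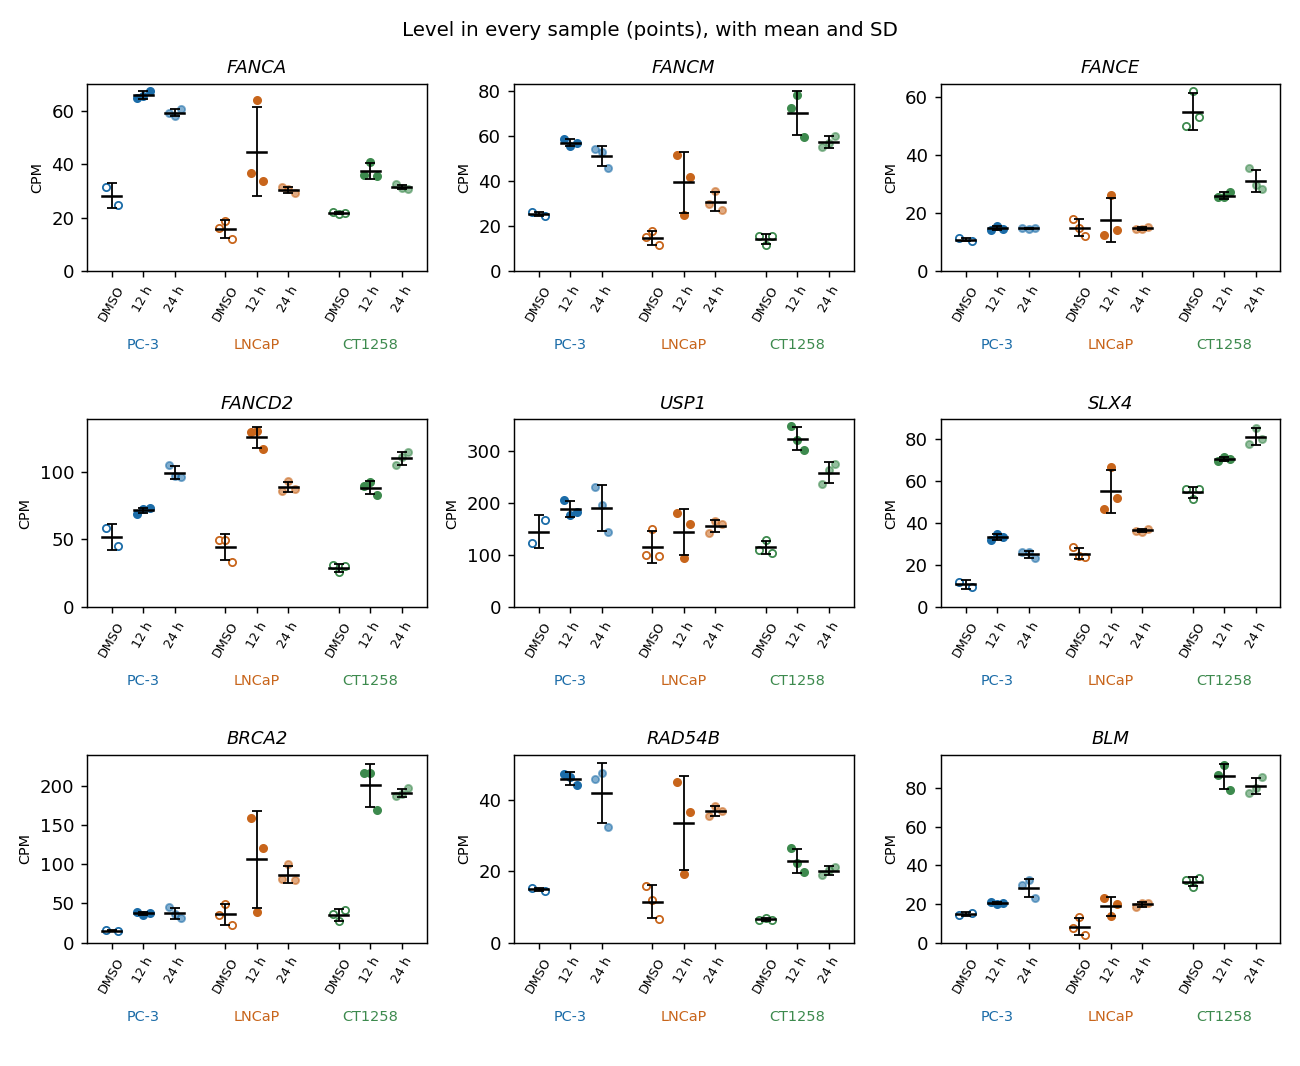
CPM in every sample is plotted for 9 of the genes, with open points for DMSO, filled points for 12 h and paler points for 24 h of PDA-66, and lines for the mean and SD (n = 3, and n = 2 in PC-3 DMSO). FANCE falls in CT1258, from 50 to 62.1 CPM down to 25.4 to 27.3 CPM after 12 h, and the LNCaP 12 h samples are the widest apart, with BRCA2 between 38.6 and 159 CPM.

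Among the nucleases and their scaffold, SLX4 had the highest log2 fold change of all members in PC-3 after 12 h without the correction, with 1.66 ± 0.135 next to 1.63 ± 0.158 for RAD54B, a gap within their errors. With the correction RAD54B (1.61) lay above SLX4 (1.52). SLX4 lies at chr16:3631182-3661607 (GRCh37, 15 exons). In PC-3, SLX4 was at 12 and 9.19 CPM in the controls, at 31.9, 34.7 and 33.5 CPM after 12 h and at 26, 26 and 23.2 CPM after 24 h. In CT1258 it was at 56.2, 51.4 and 56.1 CPM in the controls, at 69.4, 71.5 and 70.6 CPM after 12 h and at 77.8, 85.6 and 80.2 CPM after 24 h. The groups were apart in both lines, with a change of 1.66 ± 0.135 in PC-3 (adjusted p = 4.90e-07) and of 0.37 ± 0.0831 in CT1258 (adjusted p = 0.00128), or 0.78 ± 0.0745 with the correction (adjusted p = 1.05e-06). In LNCaP, SLX4 went from 28.4, 24.1 and 23.5 CPM to 46.9, 66.7 and 51.7 CPM after 12 h (1.12 ± 0.176, adjusted p = 0.0085), and was at 36.2, 35.8 and 37.3 CPM after 24 h.

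EME1, which forms a structure-selective nuclease with MUS81, was at 15.9, 11.9 and 7.95 CPM in the LNCaP controls and at 36.8, 42.2 and 35.1 CPM after 12 h, a change of 1.67 ± 0.236 (adjusted p = 0.00773), or 1.61 with the correction. After 24 h it was at 27.5, 25.9 and 28.9 CPM there. In PC-3, controls at 18.9 and 27.5 CPM overlapped with 12 h samples at 22.5, 29 and 25.6 CPM, while the 24 h samples at 34.4, 31.5 and 34.9 CPM lay above both. In CT1258, EME1 was at 14.4, 18.6 and 16.2 CPM in the controls, at 21.4, 23.4 and 25.5 CPM after 12 h and at 36.6, 32.4 and 31.7 CPM after 24 h, a rise of 1.03 ± 0.119 by then (adjusted p = 6.60e-06) and of 1.13 with the correction. MUS81 had PC-3 changes of -0.08 and -0.10, LNCaP changes of -0.10 and -0.32 and CT1258 changes of -0.37 and 0.01, none past 0.001. With the correction MUS81 rose in CT1258 after 24 h (0.52, adjusted p = 1.20e-05). ERCC4, the catalytic subunit of the XPF-ERCC1 nuclease, rose in PC-3 after 12 h by 0.65, while its partner ERCC1 had -0.36 (adjusted p = 0.0173). FAN1, a nuclease recruited by the clamp, stayed between -0.05 and 0.20 in all 6 comparisons without correction.

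Of BRCA1, BRCA2 and their 4 partners, 4 of 6 genes rose in PC-3 and 6 of 6 in CT1258 at both times. The shares of all genes that rose were 13.0% and 8.88% in PC-3, and 22.2% and 16.6% in CT1258. With the correction, 4 of 6 and 5 of 6 were called. In LNCaP 0 of 6 passed 0.001 without the correction, and at an adjusted p-value under 0.05 only BRCA1 was higher, at both times. With the correction, 4 of 6 were higher in LNCaP under 0.05 after 12 h and 5 of 6 after 24 h (15.6% and 9.32% of all genes). Under 0.001, 1 of 6 was higher after 12 h with the correction (0.684%) and 0 after 24 h. BRCA2, a tumor suppressor needed for recombination (chr13:32889223-32974405, GRCh37, 27 exons), had the highest change of all members in CT1258. There it was at 36.6, 26.9 and 42 CPM in the controls, at 217, 217 and 169 CPM after 12 h and at 187, 190 and 197 CPM after 24 h, a rise of 2.52 ± 0.144 (adjusted p = 8.83e-09) and 2.44 ± 0.144. With the correction these were 1.86 ± 0.0812 and 1.91 ± 0.0814. In PC-3, BRCA2 went from 15.9 and 14.7 CPM to 39.3, 35.4 and 38.2 CPM after 12 h and 45.1, 36.2 and 31.5 CPM after 24 h, a rise of 1.30 at both times. LNCaP controls were at 35.7, 49.6 and 22.6 CPM and overlapped with the 12 h samples at 159, 38.6 and 121 CPM, while the 24 h samples at 81.1, 99.8 and 79.5 CPM lay above every control.

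BRCA1, a ubiquitin ligase that directs breaks into recombination, was at 45.3 and 45.4 CPM in the PC-3 controls, 75.1, 74.3 and 73.7 CPM after 12 h and 93.5, 92.2 and 76.7 CPM after 24 h. In CT1258 it was at 43.9, 32.9 and 39.3 CPM, then at 143, 152 and 113 CPM after 12 h and 89.3, 94.6 and 93.1 CPM after 24 h. In LNCaP it was at 53.6, 85.8 and 41.5 CPM with DMSO, at 177, 112 and 156 CPM after 12 h and at 148, 156 and 147 CPM after 24 h. In all 3 lines, every PDA-66 sample lay above every control. BRCA1 rose by 0.71 and 0.95 in PC-3, by 1.81 and 1.25 in CT1258 (1.35 and 0.89 with the correction), and had changes of 1.30 and 1.31 in LNCaP (adjusted p = 0.0206 and 0.0383). BARD1, the partner of BRCA1 in this ligase, had 0.82 and 0.79 in PC-3 (adjusted p = 0.0028 and 0.00442) and was called in CT1258 with 0.53 and 0.52. With the correction the changes of BARD1 in CT1258 were -0.12 and -0.00, so that this rise did not hold. BRIP1, a helicase bound to BRCA1, and RBBP8, which starts the trimming of DNA ends, were called in both PC-3 and CT1258, and the bridge PALB2 in CT1258. With the correction, the changes in CT1258 were 1.38 and 0.80 for BRIP1, 0.29 and 0.33 for RBBP8, and 0.66 and 0.77 for PALB2, all past the threshold.

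Of the recombination mediators (RAD51C, XRCC2 and XRCC3) and the DNA translocases, RAD54B was called at both times in PC-3 and CT1258. In PC-3 it went from 15.3 and 14.6 CPM to 47.4, 46.6 and 44.1 CPM after 12 h and 45.9, 47.7 and 32.4 CPM after 24 h. In CT1258 it went from 6.2, 6.86 and 6.41 CPM to 26.4, 22.2 and 19.8 CPM and 18.9, 20.3 and 21.3 CPM. LNCaP samples were at 15.8, 11.9 and 6.72 CPM with DMSO, at 45, 19.2 and 36.6 CPM after 12 h and at 35.4, 38.2 and 36.8 CPM after 24 h. In no line did a PDA-66 sample overlap with the controls, with changes of 1.63 and 1.5 in PC-3, 1.81 and 1.63 in CT1258 (1.18 and 1.11 with the correction) and 1.55 and 1.68 in LNCaP (adjusted p = 0.0278 and 0.0407). In the human annotation, FSBP shares 65.5% of the exon bases of RAD54B on the same strand, so that reads of both cannot be told apart.

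RAD54L, the second translocase, was at 27.2 and 29.6 CPM in the PC-3 controls, at 44.2, 49 and 46.3 CPM after 12 h and at 63.2, 61.2 and 62.1 CPM after 24 h. It rose by 0.71 ± 0.101 and 1.13 ± 0.102 in PC-3, the latter with an adjusted p of 2.57e-06. In LNCaP it was at 21.4, 27.2 and 15.5 CPM, then at 44.5, 71.9 and 41.6 CPM and at 53.6, 47.4 and 54.2 CPM. CT1258 controls at 20.7, 27.4 and 21.8 CPM overlapped with the 12 h samples at 26.4, 24 and 23.7 CPM, while the 24 h samples at 28.4, 29.6 and 30 CPM lay above every control. The change after 24 h was 0.33 (adjusted p = 0.0248), or 0.52 (adjusted p = 0.00075) with the correction. XRCC3 was at 40.4, 36.9 and 33.2 CPM in the LNCaP controls and at 57.2, 106 and 54.2 CPM after 12 h and 59.3, 52 and 57.2 CPM after 24 h. In CT1258 it had 4.36, 4.28 and 4.62 CPM with DMSO, 2.66, 2.76 and 3.74 CPM after 12 h and 2.7, 3.15 and 1.76 CPM after 24 h. In PC-3, XRCC3 was at 38.2 and 47.8 CPM with DMSO and at 52.2, 50.9 and 53.2 CPM after 12 h, and then at 54.7, 50.2 and 60.7 CPM. Its changes after 12 h were 0.98 in LNCaP (adjusted p = 0.0423) and -0.54 in CT1258 (adjusted p = 0.0383), the latter 0.09 with the correction. RAD51C was called in PC-3 after 24 h and in CT1258 at both times, with 0.86 and 1.09. With the correction these were 0.48 (adjusted p = 0.00182), which missed the threshold, and 0.76, which passed. XRCC2 was called in PC-3 at both times. In CT1258 the changes of XRCC2, 0.51 and 0.69, were -0.06 and 0.22 with the correction.

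In the complex that dissolves joined DNA molecules, BLM, its helicase, was at 14.1 and 15.5 CPM in the PC-3 controls, at 20.9, 19.8 and 20.6 CPM after 12 h and at 29.7, 32.2 and 23.1 CPM after 24 h. In CT1258 it went from 32.3, 28.9 and 33.4 CPM to 86.9, 92.2 and 79.3 CPM and 77.3, 80.3 and 85.9 CPM. BLM rose by 1.45 ± 0.0954 and 1.36 ± 0.0955 in CT1258 (0.95 and 0.96 with the correction), and by 0.94 ± 0.144 in PC-3 after 24 h (adjusted p = 0.000163). In LNCaP, BLM was low, with 7.76, 13 and 3.94 CPM in the controls and 23, 13.5 and 20 CPM after 12 h, and 18.3, 20.3 and 20.7 CPM after 24 h. RMI1, a scaffold of the complex, went from 31.2, 31.7 and 27.7 CPM to 89, 88.7 and 78.9 CPM after 12 h and 70.3, 77.1 and 76.9 CPM after 24 h in CT1258, where it rose by 1.5 ± 0.0944 (adjusted p = 1.86e-08; 0.75 with the correction). PC-3 had 36.8 and 47.3 CPM of RMI1 with DMSO, 63.3, 54.4 and 58.2 CPM after 12 h and 81, 70.2 and 56.4 CPM after 24 h, with changes of 0.48 and 0.72 that passed only with the correction. In LNCaP, RMI1 controls at 86.6, 101 and 68.6 CPM overlapped with the 12 h samples at 137, 50.7 and 116 CPM, while the 24 h samples at 114, 133 and 118 CPM lay above every control. TOP3A, the topoisomerase, rose in PC-3 after 24 h by 0.54, and RMI2 in CT1258 after 12 h by 0.94 (1.11 with the correction).

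For PC-3 and CT1258, 9 members rose at both times in both lines (2.55% of the 8703 genes tested in both), and 10 with the correction (3.40% of 8091). The 8 that did so either way were BRCA1, BRCA2, BRIP1, FANCA, FANCI, FANCM, RAD54B and RBBP8. These lines share no samples, but the members were chosen with results of these data known, and the times within a line share controls. In LNCaP with the correction, 7 members rose after 12 h at the 0.001 threshold (20.6%, compared with 0.684% of all genes), namely FANCG, FANCM, FANCD2, FANCI, SLX4, EME1 and BRCA1. At an adjusted p-value under 0.05, 24 and 25 members were higher in LNCaP with the correction, compared with 15.6% and 9.32% of all genes.

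The sample LNCaP PDA-66 12 h replicate 2 differed from the other 2 of its group along GC content. Over the 34 genes, Spearman's rho between GC content and its log2 ratio to the mean of replicates 1 and 3 was 0.90, and over 10608 genes it was 0.78. The ratio was -1.86 for BRCA2, with 36.2% GC, and 1.16 for FANCG, with 57.7% GC. This sample was also the highest of the group for FANCA, FANCE, FANCG, RAD54L and XRCC3 and the lowest for FANCM, USP1, WDR48, RMI1 and RAD54B. The summed fibroblast markers of this 12 h group ranged from 19.4 to 127 CPM, compared with at most 28.4 CPM in the LNCaP controls. Without replicate 2, 8 members passed the 0.001 threshold in LNCaP after 12 h (1.96% of all genes), and 11 did so without it and with the correction (3.82%). The part of base composition in the differences within LNCaP was not tested beyond this.

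**Figure D4:**
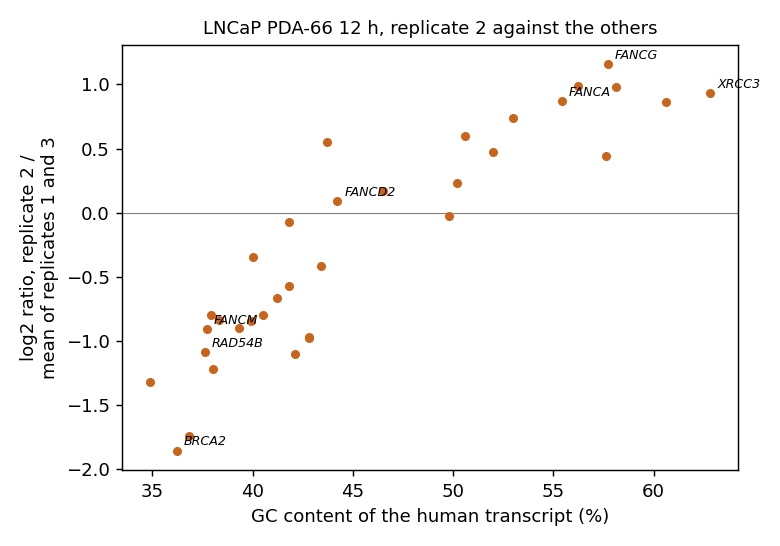
For each of the 34 genes, the log2 ratio of LNCaP PDA-66 12 h replicate 2 to the mean of replicates 1 and 3 is plotted against the GC content of the transcript in percent. The points run from -1.86 at BRCA2 to 1.16 at FANCG, and 14 genes lie above 0 and 20 below.

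A joint fit tested whether the log2 fold changes differed between lines. It covered the 11736 gene symbols that were present in all 3 tables and passed the filter on low counts. Of the members, 2 differed in response between PC-3 and LNCaP after 12 h (3.57% of all genes) and 0 after 24 h (1.23%), where 2 had an adjusted p-value under 0.05. EME1 had a smaller change in PC-3 than in LNCaP, with a difference of -1.49 ± 0.268 (adjusted p = 0.000428), and so did FANCD2, with -1.0 ± 0.193 (adjusted p = 0.000801). Both passed with the correction, with -1.41 and -1.29, and so did BRCA1, with -0.91 (10.2% of all genes after 12 h and 5.62% after 24 h, where 0 members passed). Of 52 values from fits without 1 sample, 14 missed the threshold. Neither gene passed without PC-3 PDA-66 12 h replicate P12-1 or replicate 3. Only EME1 passed without PC-3 DMSO replicate 2, PC-3 PDA-66 12 h replicate P12-2, LNCaP DMSO replicate 3, CT1258 DMSO replicate 1 or 3, or any one of the CT1258 24 h samples, and only FANCD2 without PC-3 DMSO replicate 3 or LNCaP DMSO replicate 2.

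Between PC-3 and CT1258, 3 members differed after 12 h (9.33% of all genes) and 1 after 24 h (4.79%). FANCE had a difference of 1.52 ± 0.284 after 12 h (adjusted p = 0.00028), SLX4 of 1.27 ± 0.188 (adjusted p = 1.91e-05) and FANCD2 of -1.15 ± 0.194 (adjusted p = 8.53e-05). With the correction these were 1.05, 0.77 and -0.90, and all passed, as did BARD1 (0.81), FANCM (-0.64) and XRCC2 (0.99), which makes 6 members (16.6% of all genes). FANCD2 also differed after 24 h, by -0.99 ± 0.193 (adjusted p = 0.000754), which became -0.83 with an adjusted p-value of 0.00232 and did not pass in most of the fits that left out 1 sample. After 24 h FANCE passed with the correction (0.86, adjusted p = 0.000288), compared with 10.4% of all genes. Without LNCaP PDA-66 12 h replicate 2, a sample of neither line, 10 members differed after 12 h (23.1% of all genes) and 6 after 24 h (15.6%). Without PC-3 DMSO replicate 2, 1 differed after 12 h (7.71%) and 0 after 24 h (3.91%).

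Between LNCaP and CT1258, 4 members differed after 12 h (12.8% of all genes) and 1 after 24 h (3.44%). After 12 h FANCG had a difference of 1.81 ± 0.279 (adjusted p = 3.59e-05), XRCC3 of 1.45 ± 0.306, FANCE of 1.25 ± 0.264 and RAD54L of 1.16 ± 0.25. With the correction FANCG kept its call (1.08, adjusted p = 8.40e-06), while XRCC3 (0.63), FANCE (0.53) and RAD54L (0.88) did not pass. FANCI (0.91) and XRCC2 (1.13) passed only with the correction, so that 3 members did (14.6% of all genes). After 24 h FANCD2 had -0.95 ± 0.184 (adjusted p = 0.000864), and -0.64 (adjusted p = 0.0127) with the correction, which called 0 members then (7.79% of all genes), and it did not pass in most of the fits that left out 1 sample. After 12 h, 10 members differed without LNCaP PDA-66 12 h replicate 1 (23.3% of all genes) and 7 without replicate 3 (17.1%), while 1 did without LNCaP DMSO replicate 3 (9.86%) or without any one of the CT1258 controls (8.75% to 10.4%). Without LNCaP PDA-66 12 h replicate 2, 8 differed after 24 h (15.9%). In these comparisons human and canine rows were matched by symbol only.

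The direct comparison of 24 h with 12 h called no member, with 0 calls for PC-3 (1.41% of all genes), 0 for LNCaP (0%) and 0 for CT1258 (2.13%). Leaving out CT1258 DMSO replicate 2 gave 7 in CT1258 (13.6%), and leaving out either control gave 1 in PC-3 (3.54% and 3.55%). By unadjusted p-value under 0.05, 13, 2 and 11 members differed (24.5%, 6.36% and 32.5% of all genes), and the DESeq2 Wald test called 2 in PC-3 and 3 in CT1258 (3.73% and 6.75%). UBE2T was higher after 24 h than after 12 h in CT1258 by 0.60 ± 0.114 (adjusted p = 0.00272), with 45.3, 43.2 and 45.7 CPM after 12 h and 60.4, 71.6 and 71.9 CPM after 24 h. With the correction, UBE2T (0.59) and FANCD2 (0.39) passed in CT1258, compared with 6.21% of all genes. BRIP1 and BRCA1 had lower values after 24 h in CT1258, by -0.72 (adjusted p = 0.00796) and -0.56 (adjusted p = 0.00597).

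In the controls, levels were compared between genes as CPM per kilobase of the canonical human transcript, in the human lines only. USP1 was the highest in PC-3 with 40.2 CPM per kb, followed by RBBP8 with 34.8 and UBE2T with 22.4. UBE2T was the highest in LNCaP with 50.7, followed by USP1 with 32 and RMI1 with 25.8. The lowest in PC-3 were SLX4 (1.44), BRCA2 (1.28) and BARD1 (1.2), and in LNCaP FANCM (2.05), BLM (1.57) and FANCB (1.23). BARD1 had 13.2 CPM per kb in LNCaP. Neighbours in this order were not tested against each other.

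Lists of further genes were described by count and median. After 12 h, 13.0% of all genes rose in PC-3 and 22.2% in CT1258, or 19.6% and 17.7% with the correction. Of 42 other Fanconi and recombination genes tested in PC-3, 8 rose and 1 fell after 12 h, with a median log2 fold change of 0.17. With the correction, 14 of 34 rose and 1 fell in PC-3 (median 0.32). In CT1258, 18 of 35 rose and 7 fell (median 0.42), or 11 and 2 of 29 with the correction. For end joining, the other main route for breaks, 4 of 10 genes rose in PC-3 and 6 of 10 in CT1258 after 12 h. With the correction the order of the lines turned, with 7 of 10 in PC-3 and 3 of 10 in CT1258. Of 20 S phase genes, 14 rose and none fell in PC-3 at both times (median 0.94 after 12 h), or 18 and 19 rose with the correction. In CT1258, 13 of the 20 rose after 12 h (12 with the correction). After 24 h, 7 of them rose and 2 fell in CT1258, or 6 and 0 with the correction (16.6% and 17.2% of all genes, or 13.1% higher with the correction). Of the G2/M genes, 16 of 18 rose in CT1258 after 12 h (median 1.42) and 4 of 20 in PC-3 (median 0.47). With the correction, 17 of 18 and 6 of 20 did. In LNCaP no S phase or G2/M gene passed 0.001 without the correction, while 6 S phase genes after 12 h, 1 after 24 h and 0 G2/M genes did with it, with uncorrected medians of 1.24 for S phase and 1.38 for G2/M after 12 h. The part of cell cycle stage in the changes of the members was not tested.

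Some members share exon bases with a neighbor in the human annotation, and whether counting used the strand is not given in the sources used here. At least 10% of the canonical exon bases were shared for 10 members, most for ERCC1 with POLR1G (47.1%) on the opposite strand, apart from RAD54B. Pseudogenes named after BRCA1, FANCD2 and RBBP8 are annotated, so that reads of these could be split between copies.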

How the data were processed

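Polyadenylated RNA was sequenced in all 3 lines. Alignment used STAR 2.3.1s and hg19 for the human lines, and BWA and CanFam3.1 for CT1258, per the labels and the study's methods. The authors deposited whole read counts per gene for 26 of the 27 samples. PC-3 DMSO replicate 1 was not analysed here, and the study had left out 1 PC-3 control as an outlier. Trailing separators were removed from 1 PC-3 column, and 2 PC-3 columns (P12-1 and P12-2) were tied to the 12 h group only. Counts of each line were filtered (filterByExpr), normalized by TMM and tested with edgeR 4.0.16 (quasi-likelihood F test, 3 groups together, Benjamini-Hochberg adjustment over all genes tested) in R 4.3.3; interactions were tested in 1 fit over 9 groups. SE values are of the log2 fold change. Alternatives used DESeq2 1.42.0 and a correction by splines (4 degrees of freedom each) of GC content and transcript length from GENCODE on GRCh37. Figures were drawn with Python 3.11.15. The tests were checked on simulated data, the outcome of which is not given here and supports no result. Members, lists and rules were chosen with earlier results of these data known. Values are given in every sample for the 2 genes with the smallest adjusted p-value per role, and for those with an interaction; FANCF, UBE2T and other genes named beside them were chosen after their values were seen. The main tests did not pair samples by replicate number, and whether the numbers mark shared experiments is not known.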

Additional observations from a re-analysis of the deposited data

Results flagged for a closer look

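The response to PDA-66 differed between cell lines, as tested by edgeR's interaction term at an adjusted p-value under 0.001, for 7 of the 34 genes in at least 1 comparison (20.6%), and for 20.6% of all genes tested. After 12 h, the log2 fold change in PC-3 minus that in LNCaP was -1.49 for EME1 and -1.0 for FANCD2. PC-3 minus CT1258 gave -1.15 for FANCD2, 1.52 for FANCE and 1.27 for SLX4 after 12 h, and -0.99 for FANCD2 after 24 h. LNCaP minus CT1258 gave 1.25 for FANCE, 1.81 for FANCG, 1.16 for RAD54L and 1.45 for XRCC3 after 12 h, and -0.95 for FANCD2 after 24 h. With the GC and length correction, FANCE, RAD54L and XRCC3 in LNCaP minus CT1258 and both differences of FANCD2 after 24 h did not pass. The GC trend of CT1258 and the LNCaP 12 h replicate 2 move with the comparisons that involve these samples.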

How the results depend on the processing

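With an adjusted p-value under 0.05, the members called were 25 and 29 in PC-3 after 12 h and 24 h (57.0% and 49.9% of all genes). They were 16 and 7 in LNCaP (9.14% and 2.92%) and 27 and 25 in CT1258 (69.8% and 62.1%). Between the times they were 5 (PC-3) and 7 (CT1258), compared with 10.1% and 19.3% of all genes. At that threshold the responses differed for 5 and 2 members (PC-3 and LNCaP, 12 h and 24 h), 11 and 8 (PC-3 and CT1258), and 14 and 10 (LNCaP and CT1258), compared with 19.6% and 9.70%, 30.1% and 21.2%, and 40.2% and 21.1% of all genes. The DESeq2 Wald test called 13 and 7 in LNCaP, 2 and 3 between the times in PC-3 and CT1258, and differences for 7 and 2 (PC-3 and CT1258, 15.6% and 9.78% of all genes) and 9 and 2 (LNCaP and CT1258, 21.3% and 8.84%). The exact test gave 2 and 19 in LNCaP, and 4 and 7 between the times in PC-3 and CT1258 (10.0% and 18.3% of all genes). DESeq2 size factors gave 2 differences between LNCaP and CT1258 after 12 h (13.0%), of which FANCG was among the 4 called.

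With the GC and length correction, 7 members were called in LNCaP after 12 h and 2 between the times in CT1258, and 6 differed between PC-3 and CT1258 after 12 h and 0 between LNCaP and CT1258 after 24 h. BARD1 turned to -0.12 and -0.00 in CT1258 with it. Without LNCaP PDA-66 12 h replicate 2 as well, 11 and 5 were called in LNCaP (3.82% and 2.23% of all genes). Both of these were chosen after seeing the data, and the cause of the changes was not tested.

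Leaving out 1 sample gave 12 to 15 and 13 to 20 members in PC-3, 16 to 24 and 17 to 23 in CT1258, and 0 to 8 in LNCaP after 12 h, with 8 without its replicate 2. Between the times it gave 0 to 1 in PC-3 and 0 to 7 in CT1258. For differences between lines it gave 0 to 2 for PC-3 and LNCaP after 12 h, 1 to 10 and 0 to 6 for PC-3 and CT1258, and 1 to 10 and 0 to 8 for LNCaP and CT1258. The replicate block left 11 of 18 members in PC-3 after 24 h, and of the calls under 0.05 in LNCaP 8 of 16 after 12 h and 0 of 7 after 24 h. Whether samples with the same replicate number came from the same experiment is not known. Correlations of their deviations from the group mean lay between -0.42 and 0.185. Such deviations depend on each other within groups this small, so these correlations cannot decide it. Of 1729 alternative values of the called genes, 1453 kept direction and call, 274 lost the call and 2 reversed. Thinning the CT1258 controls lost FANCA after 24 h only.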
